A study of Mus musculus with 42 samples.

Results

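Gene expression in the cerebellum was compared between mice refed after a daily fast (IF16-R) and mice that were fed freely throughout (AL-R). The comparison takes the 10 RNA-seq libraries that the labels place in these groups, 5 in each, of the 42 samples in the series. All mice were males of the strain C57/BL6NTac, given as C57BL/6 in the sample labels. From 3 months of age, food was withheld from IF16-R mice for 16 h of every day for 3 months, while AL-R mice ate at will. Both groups then ate ad libitum for 2 months and were 8 months old at collection. A further group in the same table, EOD-R, had fasted for 24 h on alternate days before the same refeeding. Libraries of other mice taken at 6 months, at the end of the regimens, form the groups IF16 and AL. Cerebella were flash frozen and total RNA was used. The labels do not say whether a library came from 1 mouse or from several, so p-values measure the spread between these samples. The hour of collection is not given in the sources used here.

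Astrocytes, and the Bergmann glia that span the cerebellar cortex beside the Purkinje cells, buffer water, ions and transmitters around neurons. They are coupled through gap junctions built from connexins, carry the water channel Aqp4 on their endfeet at blood vessels, and express receptors for vascular peptides such as endothelin. Fasting shifts the fuel supply of the brain from glucose towards ketone bodies, and the genes for ketone use, fatty acid oxidation and the FOXO response are the ones usually followed in fasted tissue. The comparison asks which differences were present 2 months after the fasts had ended.

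The AL-R libraries held 30577782 to 33736297 counts in total and the IF16-R libraries 30126372 to 34985455. In genes averaging 50 counts or more, replicates of a group differed by 4.25 to 20.6 chi-square units per degree of freedom, so no pair agreed within sampling noise. The 15 granule cell markers had a mean log2 CPM (the count scaled to library size) of 8.73 to 8.78 in the AL-R libraries. In IF16-R their mean was 8.76 to 8.80. The forebrain markers with any count had means of 1.37 to 1.56 in AL-R and of 1.43 to 1.49 in IF16-R. In each group replicate 1 stood apart in RNA of the choroid plexus, the secretory epithelium of the ventricles. Its transport protein gene Ttr reached 1816 CPM in AL-R replicate 1 and 599 CPM in IF16-R replicate 1, against 15.02 to 199 and 7.84 to 157 CPM in the other libraries.

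Refed mice with a history of daily fasting had more mRNA of 11 genes, among them the astrocyte genes Gja1, Ednrb, Aqp4 and Etnppl. They had less of 17 genes, among them the mitochondrial mRNAs mt-Nd3, mt-Atp6 and mt-Co3 and the ribosomal protein genes Rpl41 and Rpl38. These 28 were called among 16444 genes tested with edgeR's quasi-likelihood test at a Benjamini-Hochberg adjusted p under 0.05. They make up 0.17% of the genes tested, with 0.0669% called higher and 0.103% called lower in IF16-R. At an unadjusted p under 0.05 the count was 1576 genes, or 9.58%, with 4.76% higher and 4.83% lower. The changes were small. The median log2 fold change was 0.25 for the genes called higher, with a range from 0.19 to 0.38, and -0.44 for those called lower, with a range from -1.01 to -0.19. All 11 genes called higher and 14 of the 17 called lower had no overlap between the libraries of the groups, against 1.07% and 1.11% of all genes tested. The genes were called from these same libraries, so their separation follows in part from the selection and is no separate support for the calls.

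The number of calls depended on the libraries in the fit. Without AL-R replicates 1 to 5 in turn it was 2, 4, 2, 4 and 7, and without IF16-R replicates 1 to 5 it was 65, 5, 0, 7 and 3. The fit without IF16-R replicate 3 had 1101 genes at an unadjusted p under 0.05. Gja1 and Dnah11 were called in 9 of these 10 fits, Tmem82 and Ednrb in 5, and the other genes in at most 3. With the replicate number as a block, edgeR called 95 genes (0.578%), and all 28 were among them. DESeq2 called 108 (0.725%), again with all 28. Without the replicates 1 of both groups, an alternative chosen after seeing the data, 28 genes were called, of which 18 were the same genes.

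The groups also differed along gene length, and this gradient stands beside every result below. For each library, each tested gene's log2 CPM minus that gene's mean over the 15 refed libraries was regressed on the log2 of gene length. The slopes were 0.0151, 0.0016, 0.0331, 0.0107 and 0.0349 in IF16-R replicates 1 to 5, in log2 units per doubling of length. In AL-R they were -0.0129, -5.54e-07, -0.0021, -0.0231 and -0.0104. All IF16-R slopes lay above 0 and all AL-R slopes below it, so long genes were relatively higher in IF16-R. The mean slopes differed by 0.0288. This separation was known when the comparison was chosen, so it is given as a description with no test. The EOD-R slopes ranged from -0.0235 to 0.0087. IF16-R exceeded them by 0.0284 on average, and the ranges of the 2 groups overlapped. The IF16-R slopes were known when the comparison was chosen, so this difference too is given with no test.

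**Figure D1:**
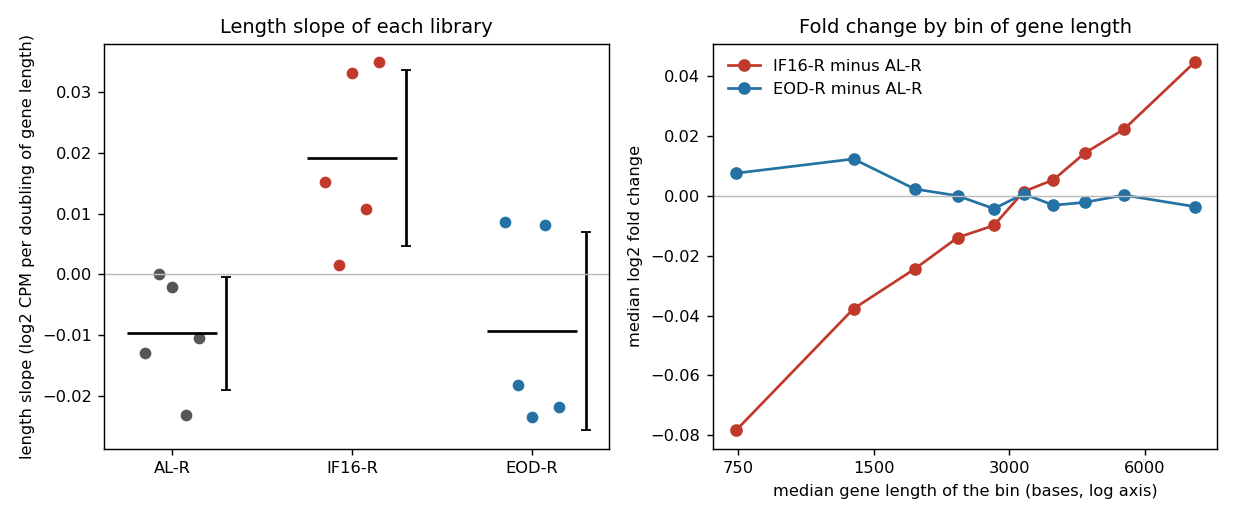
Left, the length slope of each library (log2 CPM per doubling of gene length) for AL-R, IF16-R and EOD-R, with points for libraries, lines for means and bars for 1 SD. Right, the median log2 fold change against AL-R in 10 equal bins of genes ordered by length, on a log axis of length. The IF16-R line rises from -0.08 in the shortest bin to 0.04 in the longest, while the EOD-R line stays between -0.0042 and 0.0124.

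Over 10 bins of gene length, the median log2 fold change of IF16-R over AL-R rose at every step. It was -0.08 among the 1645 shortest genes, which were up to 1074 bases long, and 0.04 among the longest. The shortest bin held 11 of the 17 genes called lower and none of the 11 called higher. Genes called lower had a median length of 783 bases and genes called higher one of 4326 bases, against 2997 bases over all genes tested. Of the 11 genes called higher, 10 were longer than 2500 bases, as were 60.9% of all tested, and 10 of the 17 called lower were shorter than 1000 bases, as were 8.74% of all tested.

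The astrocyte genes Gja1, Ednrb, Aqp4 and Etnppl rose in IF16-R. Gja1 (chr10:56377300-56390419 in the deposited coordinates), which encodes the astrocyte connexin of gap junctions, was at 201, 222, 212, 236 and 216 CPM in AL-R and at 258, 262, 281, 259 and 290 CPM in IF16-R. Every IF16-R library was above every AL-R library. Its log2 fold change was 0.31 (SE 0.045, adjusted p = 0.0116). Ednrb (chr14:103814625-103844173), a receptor for endothelins, was at 100, 108, 97.2, 105 and 108 CPM in AL-R and at 127, 120, 135, 118 and 124 CPM in IF16-R. The groups did not overlap, and its log2 fold change was 0.27 (SE 0.044, adjusted p = 0.0277). Aqp4, the water channel, was at 255, 262, 242, 249 and 267 CPM in AL-R and at 288, 290, 303, 291 and 325 CPM in IF16-R. These values were again separate between the groups, and its log2 fold change was 0.23 (SE 0.044, adjusted p = 0.0374). Etnppl (chr3:130617448-130635750), an enzyme that breaks down phosphoethanolamine, was at 71.8, 80.9, 84.5, 80.9 and 88.9 CPM in AL-R and at 93.2, 99.0, 98.7, 99.7 and 94.2 CPM in IF16-R. The lowest IF16-R library was above the highest AL-R library, with a log2 fold change of 0.25 (SE 0.048, adjusted p = 0.0378). In bulk tissue, more cells of a type and more RNA per cell cannot be told apart.

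Promoter sequences of 3 of these astrocyte genes are shown because their transcripts moved together. They are the 250 bases before the RefSeq start on GRCm38.p6, written on the gene's own strand, at chr10:56377050-56377299 for Gja1, chr14:103843702-103843951 (minus strand) for Ednrb and chr3:130617198-130617447 for Etnppl. The RefSeq start of Ednrb lies 472 bases from the deposited one, while the other starts coincide. Capitals mark a CCAAT box (CCAAT) or a half-site of the glucocorticoid receptor (AGAACA), searched on both strands with an E-box (CACGTG) and a half-site of nuclear factor I (TTGGCA).
Gja1: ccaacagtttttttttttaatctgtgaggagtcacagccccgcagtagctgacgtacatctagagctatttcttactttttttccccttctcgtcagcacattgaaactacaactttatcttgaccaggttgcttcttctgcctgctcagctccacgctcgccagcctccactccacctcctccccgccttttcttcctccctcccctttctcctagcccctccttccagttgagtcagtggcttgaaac
Ednrb: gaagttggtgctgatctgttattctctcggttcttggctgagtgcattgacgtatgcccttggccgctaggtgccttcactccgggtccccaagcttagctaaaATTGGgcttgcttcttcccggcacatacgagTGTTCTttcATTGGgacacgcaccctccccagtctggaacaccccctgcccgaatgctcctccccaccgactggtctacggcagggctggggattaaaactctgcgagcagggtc
Etnppl: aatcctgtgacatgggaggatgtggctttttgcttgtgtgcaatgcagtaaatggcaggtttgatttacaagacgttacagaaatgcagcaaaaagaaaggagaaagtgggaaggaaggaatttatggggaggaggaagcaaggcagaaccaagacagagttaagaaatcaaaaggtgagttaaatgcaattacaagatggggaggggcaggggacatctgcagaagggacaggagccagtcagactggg
Only the Ednrb sequence of these 3 held a match, with 3 in all. RefSeq promoters were found for 8 of the 11 genes called higher and 10 of those called lower. CCAAT was present in 3 of the 8 and 1 of the 10, against 33.8% of 32851 promoters. AGAACA was present in 2 of the 8 and 0 of the 10, against 16.1%, CACGTG in 1 and 0, against 6.02%, and TTGGCA in 0 and 1, against 12.3%. No match says only that these letters are not in the window.

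The other astrocyte markers did not pass the test. Of 26 markers of astrocytes and Bergmann glia, 4 were called higher and 0 lower, 21 had a positive log2 fold change, and the median was 0.07 against -0.0023 over all genes. Over all genes tested, 0.0669% were called higher and 8028 of 16444 had a positive log2 fold change. Gfap, the intermediate filament gene of astrocytes, had 181 and 199 CPM on average in AL-R and IF16-R (log2 fold change 0.14, SE 0.051, adjusted p = 0.384), and the glutamate transporter gene Slc1a3 had 1238 and 1316 CPM (0.09, SE 0.035, adjusted p = 0.422). The enzyme gene Aldoc averaged 2312 CPM in both groups, and Glul, glutamine synthetase, had a log2 fold change of -0.02. Summed over the list, the libraries spanned 10899 to 12103 CPM in AL-R and 11220 to 12207 CPM in IF16-R, so the sums overlapped. Without the replicates 1 of both groups, 3 of the 26 were called higher.

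No other member of the families of these genes was called by edgeR. Gja1 was the 1 gene called among 11 connexins. Gjb6, another astrocyte connexin, averaged 75.8 and 81.4 CPM (log2 fold change 0.10, SE 0.105, adjusted p = 0.786). Gja4, a connexin of blood vessel walls, was lower without overlap, at 4.70 and 3.80 CPM on average (-0.31, SE 0.101, adjusted p = 0.341). Of the 11 log2 fold changes, 6 were positive and 5 negative. Of the 6 endothelin pathway genes tested, Ednrb was called and the ligand genes Edn1 and Edn3 and the other receptor gene Ednra were not, with log2 fold changes of 0.20, 0.11 and 0.02. Etnppl was the 1 gene called among 10 of phosphatidylethanolamine metabolism, and the next of them by p, Pcyt2, had a log2 fold change of 0.06.

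**Figure D2:**
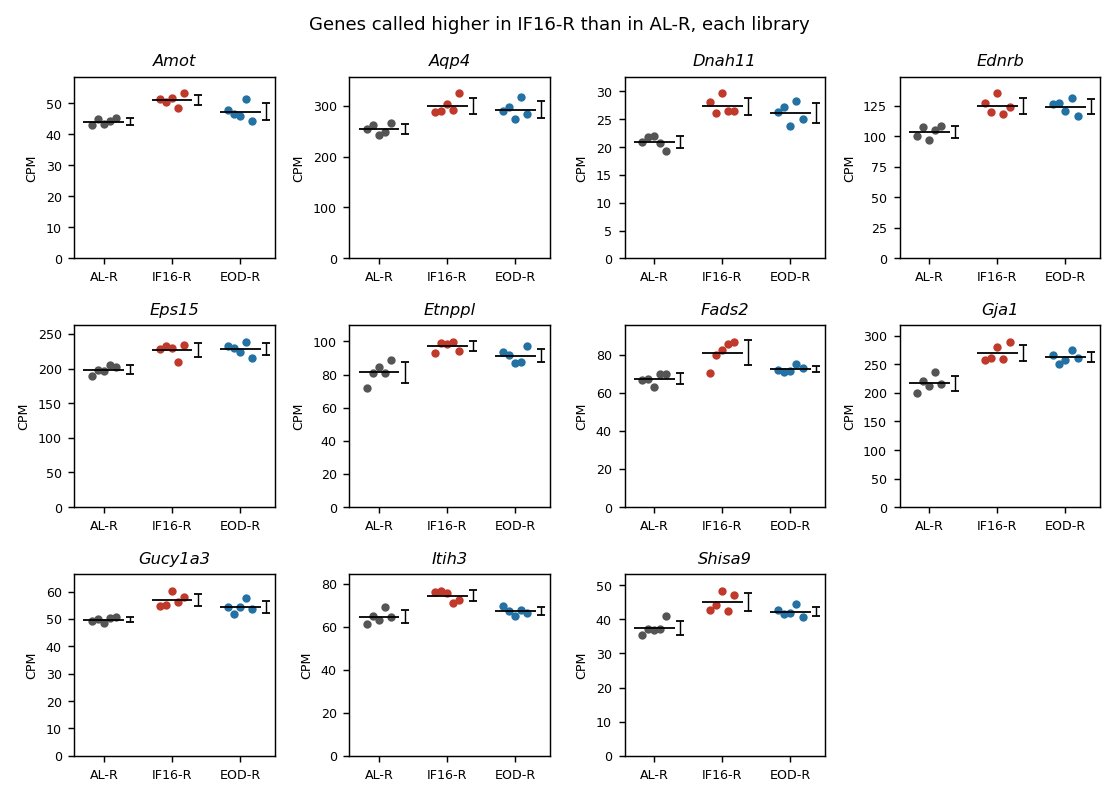
CPM of the 11 genes called higher in IF16-R than in AL-R, with EOD-R beside them. Points are libraries, lines are means and bars are 1 SD, on linear axes from 0. In every panel the 5 IF16-R points lie above the 5 AL-R points, as for Gja1 with 258 to 290 CPM against 201 to 236 CPM.

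The other 7 genes that rose came from several functions. Dnah11 (chr12:117877982-118199043), a heavy chain of axonemal dynein, was at 21.0, 21.7, 22.1, 20.8 and 19.3 CPM in AL-R and at 28.1, 26.2, 29.7, 26.4 and 26.4 CPM in IF16-R. Its log2 fold change of 0.38 (SE 0.055, adjusted p = 0.0116) was the largest of the genes called higher. It was the 1 gene called of 14 axonemal dynein heavy chains, whose median log2 fold change was -0.0009. The ciliary regulator gene Foxj1 averaged 18.1 and 18.9 CPM, and 0 of 5 ependymal markers were called, by edgeR or by DESeq2, with 0 at an unadjusted p under 0.05. At 14072 bases Dnah11 was also the longest gene called. Cdca7l overlaps Dnah11 on the opposite strand at 0.583 CPM.

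Fads2 (chr19:10064164-10101503), a desaturase that makes long polyunsaturated fatty acids, was at 66.9, 67.0, 62.8, 69.6 and 69.9 CPM in AL-R and at 70.2, 79.99, 82.6, 85.4 and 86.7 CPM in IF16-R. The groups did not overlap, though IF16-R replicate 1 lay just above the highest AL-R library. Its log2 fold change was 0.27 (SE 0.049, adjusted p = 0.0312), and with 1508 bases it was the shortest gene called higher. Shisa9, an auxiliary subunit of AMPA-type glutamate receptors, rose from 37.5 ± 2.06 to 45.0 ± 2.63 CPM (mean ± SD, n = 5 each), a log2 fold change of 0.26 (SE 0.048, adjusted p = 0.0312). Gucy1a3, a subunit of the nitric oxide receptor guanylate cyclase, rose from 49.7 ± 0.941 to 56.9 ± 2.29 CPM (0.20, SE 0.038, adjusted p = 0.043). Itih3, which encodes a heavy chain that binds hyaluronan, rose from 64.6 ± 2.94 to 74.4 ± 2.52 CPM (0.20, SE 0.038, adjusted p = 0.0346). Amot, a scaffold protein of cell junctions, and Eps15, an adaptor of endocytosis, rose by log2 fold changes of 0.21 and 0.19 (adjusted p = 0.0449 and 0.0462).

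Mitochondrial transcripts made up the largest related group among the genes that fell. mt-Nd3, a complex I subunit, was at 9.42, 8.73, 9.59, 9.37 and 8.22 CPM in AL-R and at 7.94, 4.70, 4.39, 5.24 and 4.76 CPM in IF16-R. Replicate 1 was the highest IF16-R library, and the groups did not overlap. Its log2 fold change was -0.74 (SE 0.13, adjusted p = 0.0312). mt-Atp6, an ATP synthase subunit, was at 68.1, 66.5, 61.9, 70.6 and 72.7 CPM in AL-R and at 63.7, 46.2, 46.0, 46.1 and 45.3 CPM in IF16-R. Here IF16-R replicate 1 lay within the AL-R range and the other 4 libraries lay below it. The log2 fold change was -0.46 (SE 0.079, adjusted p = 0.0312). mt-Co3, a cytochrome c oxidase subunit, fell from 79.1 ± 4.55 to 58.3 ± 7.15 CPM (-0.44, SE 0.078, adjusted p = 0.0312). mt-Atp6 overlaps mt-Co3 and mt-Atp8 on the same strand, so the reads at their ends are uncertain.

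The 3 pseudogenes called lower, all on chromosome 1, fell beside them. RP23-8J15.3 was at 105, 106, 94.2, 112 and 117 CPM in AL-R and at 99.4, 68.9, 71.2, 73.4 and 69.4 CPM in IF16-R, again with replicate 1 as the highest. Its log2 fold change was -0.48 (SE 0.089, adjusted p = 0.0312), and those of RP23-8J15.1 and RP23-8J15.4 were -0.53 and -0.43. This stretch of chromosome 1 is a nuclear copy of mitochondrial DNA, so reads could be exchanged between the copies and the division between them is uncertain. The ratio of mt-Atp6 to RP23-8J15.3 was 0.622 to 0.657 in AL-R and 0.628 to 0.671 in IF16-R. That of mt-Co3 to RP23-8J15.4 was 1.037 to 1.088 and 1.002 to 1.120, so both members of a pair moved alike. The mitochondrial genes with the highest counts did not pass the test. mt-Co1 averaged 13804 and 14306 CPM (log2 fold change 0.05, adjusted p = 0.689), and mt-Cytb had a log2 fold change of -0.04. Over the 13 mitochondrial mRNAs, 3 were called lower, 11 had a negative log2 fold change and the median was -0.13. Over all genes tested, 0.103% were called lower and 8416 of 16444 had a negative log2 fold change. A smooth curve of fold change on length over all genes gave a median of -0.07 for the 13 mRNAs. With a length curve fitted in each library removed, their median was -0.03. Summed over the list, the libraries spanned 31472 to 35134 CPM in AL-R and 32816 to 34718 CPM in IF16-R, so the sums overlapped. With the replicate block 4 were called lower, with mt-Co2 added.

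Of the nuclear genes of the respiratory chain, Atp5k fell. Atp5k (chr5:108433244-108434448), a small subunit of ATP synthase, was at 40.9, 41.1, 44.8, 47.1 and 40.9 CPM in AL-R and at 31.7, 38.5, 33.0, 34.0 and 34.7 CPM in IF16-R. No libraries overlapped, and the log2 fold change was -0.32 (SE 0.057, adjusted p = 0.0312). It was the 1 gene called of 35 nuclear subunits of complexes III to V, of which 33 had a negative log2 fold change, with a median of -0.10. Over all genes tested, 8416 of 16444 had a negative log2 fold change. With the replicate block 4 of the 35 were called lower, the others being Cox5a, Cox6b1 and Cox7c. Of 36 nuclear subunits of complex I, 0 were called by edgeR, with or without the block, or by DESeq2. At an unadjusted p under 0.05, against 4.83% of all genes tested, 15 of the 36 were lower, and 34 had a negative log2 fold change (median -0.08). Ndufa3 had the smallest p of them, at 97.4 ± 5.02 and 88.3 ± 2.83 CPM (-0.14, SE 0.044, adjusted p = 0.301). These lists have median lengths of 927 and 1014.5 bases. A smooth curve of fold change on length over all genes gave median expected values of -0.06 for each. When a length curve fitted separately in each library was removed instead, the medians were -0.04 and -0.03.

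Of the cytosolic ribosomal proteins, Rpl41 and Rpl38 fell. Rpl41 was at 151, 138, 154, 153 and 150 CPM in AL-R and at 121, 135, 129, 128 and 128 CPM in IF16-R. Rpl38 was at 75.1, 74.5, 82.6, 80.03 and 74.1 CPM in AL-R and at 65.0, 68.9, 63.8, 65.0 and 67.3 CPM in IF16-R. Neither gene had an overlap between the groups. The log2 fold changes were -0.22 (SE 0.041, adjusted p = 0.0312) for Rpl41 and -0.23 (SE 0.045, adjusted p = 0.0435) for Rpl38. They were the genes called among 80 ribosomal proteins, of which 66 had a negative log2 fold change (median -0.05). Over all genes tested, 8416 of 16444 had a negative log2 fold change. The curve of fold change on length over all genes gave a median of -0.06 for the ribosomal list. With the length curve of each library removed, the median of the list was -0.0037. Ribosomal protein genes have many processed copies in the genome, so their counts are uncertain where reads match several places. Without the replicates 1 of both groups, 0 of the 80 were called by edgeR.

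Gng13 (chr17:25717171-25719406), a G protein gamma subunit found in Purkinje cells, fell in IF16-R. It was at 11.3, 10.98, 12.1, 12.01 and 10.4 CPM in AL-R and at 9.31, 7.97, 7.38, 6.69 and 9.03 CPM in IF16-R. All IF16-R libraries were below all AL-R libraries, with a log2 fold change of -0.49 (SE 0.088, adjusted p = 0.0312). Gng13 is 719 bases long, and with the length curve removed from each library its log2 fold change was -0.41 (adjusted p = 0.127). It was the 1 gene called of 11 gamma subunits and the 1 called of 13 Purkinje cell markers, whose median log2 fold change was 0.04. Calb1 and Car8, which define Purkinje cells, had log2 fold changes of 0.02 and 0.03. Pcp4, a calmodulin-binding protein gene of 641 bases, averaged 3.94 and 2.72 CPM (-0.53, SE 0.162, adjusted p = 0.293). Chtf18 overlaps Gng13 on the opposite strand at 5.12 CPM.

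The genes with the largest fold changes were expressed at low levels. Tmem82 (chr4:141613376-141618633), a transmembrane protein gene, was at 1.88, 1.73, 1.76, 1.58 and 1.44 CPM in AL-R and at 0.686, 0.774, 0.923, 0.811 and 0.992 CPM in IF16-R. The groups did not overlap, with a log2 fold change of -1.002 (SE 0.156, adjusted p = 0.0208). Gpr55, a receptor for lysophosphatidylinositol, was at 0.985, 0.819, 0.718, 0.952 and 0.900 CPM in AL-R and at 0.477, 0.401, 0.382, 0.439 and 0.463 CPM in IF16-R, a log2 fold change of -1.01 (SE 0.194, adjusted p = 0.0398). The gene 4933407L21Rik overlaps Gpr55 on the other strand at 3.42 CPM, so the reads of Gpr55 are uncertain without strand. These values rest on few reads, with 48 to 61 per AL-R library and 23 to 30 per IF16-R library for Tmem82, and 22 to 32 and 12 to 16 for Gpr55. At 2898 and 3721 bases both genes lie near the median length of the genes tested.

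The remaining genes called lower differed in function. Nr2f1, a nuclear receptor that patterns the brain, fell from 72.7 ± 4.14 to 61.4 ± 3.08 CPM (-0.24, SE 0.048, adjusted p = 0.0435), with IF16-R replicate 1 level with AL-R replicate 5. A830082K12Rik overlaps Nr2f1 on the opposite strand at 11.9 CPM. Eid2, a repressor of cell differentiation, fell from 47.9 ± 2.1 to 38.7 ± 1.5 CPM (-0.31, SE 0.054, adjusted p = 0.0312). Cenpv, a centromere protein, fell from 22.9 ± 1.1 to 18.5 ± 1.23 CPM (-0.31, SE 0.060, adjusted p = 0.0398). The LIM protein gene Wtip and the lectin-like gene Clec2l fell by log2 fold changes of -0.49 and -0.19 (adjusted p = 0.0312 for each).

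**Figure D3:**
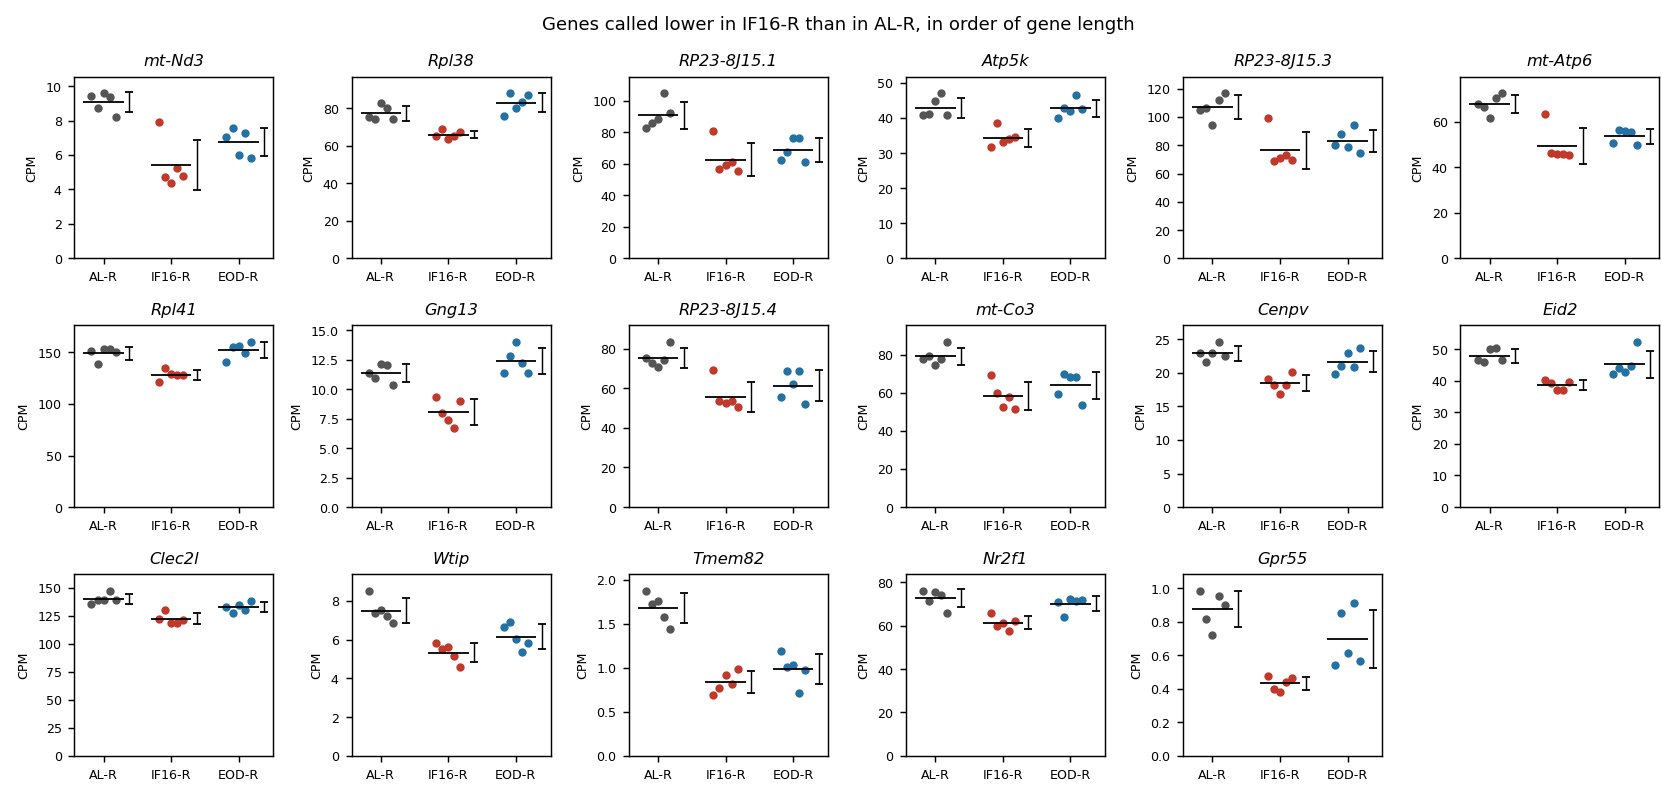
CPM of the 17 genes called lower in IF16-R than in AL-R, in order of gene length, with EOD-R beside them. Points are libraries, lines are means and bars are 1 SD, on linear axes from 0. In the mitochondrial panels IF16-R replicate 1 stands above the other IF16-R libraries, as for mt-Atp6 at 63.7 CPM against 45.3 to 46.2 CPM.

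The calls were then read against the length gradient. With the length curve removed from each library, 8 genes were called (0.0486%), and 7 of them were among the 28. These were Gja1, Dnah11, Ednrb, Shisa9, Fads2, Itih3 and Tmem82, whose log2 fold changes were then 0.31, 0.32, 0.26, 0.25, 0.30, 0.20 and -0.998. The other was Gpc6, a glypican, at -0.30 (SE 0.045, adjusted p = 0.0171), against -0.26 and an adjusted p of 0.0553 before. The mitochondrial and ribosomal genes kept a negative sign but were not called, with mt-Nd3 at -0.63 (adjusted p = 0.118), Atp5k at -0.23 (adjusted p = 0.127) and Rpl38 at -0.13 (adjusted p = 0.316). Aqp4 and Etnppl kept log2 fold changes of 0.21 and 0.26, against 0.23 and 0.25 before, with adjusted p-values of 0.0567 and 0.0536. With the slope of each library as a covariate, 0 genes were called by edgeR and 681 had an unadjusted p under 0.05. All AL-R slopes lie below all IF16-R slopes, so in that fit the gradient and the group cannot be told apart. All 28 genes kept their sign in it, with Gja1 at 0.25 and Tmem82 at -1.11.

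**Figure D4:**
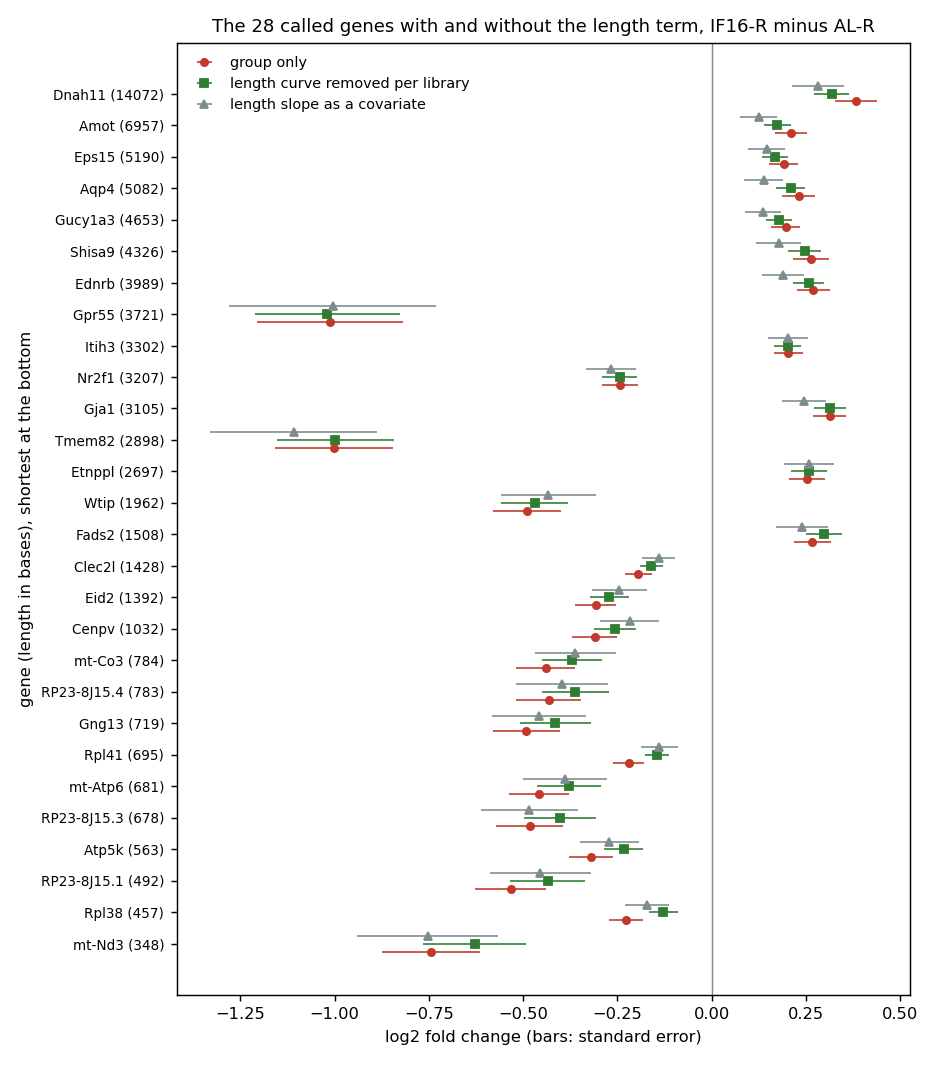
Log2 fold changes of the 28 called genes, ordered by gene length, without a length term, with the length curve removed per library, and with the length slope as a covariate. Bars are standard errors. The short genes at the bottom move towards 0 when the curve is removed (mt-Nd3 from -0.74 to -0.63), while Gja1 stays at 0.31.

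Among other cell types, no marker was called by edgeR apart from those above. Of 13 oligodendrocyte markers, 12 had a positive log2 fold change with a median of 0.14, against 8028 positive of the 16444 genes tested. At an unadjusted p under 0.05, against 4.76% of all genes tested, 6 of the 13 were higher, but 0 were called by edgeR or by DESeq2. Ugt8a, a galactolipid enzyme, had the smallest p of them, at 38.2 ± 1.86 and 44.4 ± 5.52 CPM (log2 fold change 0.21, SE 0.064, adjusted p = 0.287). IF16-R replicate 5 was the highest, with Ugt8a at 53.6 CPM against 40.6 to 45.6 CPM in the other IF16-R libraries, and without it the log2 fold change was 0.14. The summed markers reached 7252 CPM in that library, against 5335 to 6010 CPM in the other IF16-R libraries and 5159 to 5740 CPM in AL-R. With the replicate block Cldn11, a myelin tight junction gene, was called higher (adjusted p = 0.0426). The precursor marker Cspg4 averaged 11.2 ± 1.23 and 8.46 ± 0.428 CPM without overlap (-0.41, SE 0.087, adjusted p = 0.0729), and was called with the block (adjusted p = 0.015). The 11 choroid plexus markers all had a negative log2 fold change with a median of -0.95, yet spanned 166 to 2757 CPM in sum in AL-R and 155 to 1033 CPM in IF16-R. The 5 red blood cell genes were all negative too (median -0.88), at 8.63 to 114 and 13.9 to 56.3 CPM in sum. Granule cells, interneurons, microglia, endothelium, leptomeninges, brainstem and forebrain had 0 calls by edgeR and medians from 0.03 to 0.09. The part of choroid plexus and blood RNA in the gene calls was not tested beyond the fits above, and a fit with the choroid marker level as a covariate called 36 genes, 27 of the 28 included.

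The pathways of fasting metabolism showed no called gene 2 months after the fasts, where 0.17% of all genes tested were called. At that share, 0 calls in lists of this size do not set these pathways apart from other genes. The 0 calls by edgeR covered 9 genes of ketone body use, 22 of fatty acid oxidation, 15 PPAR-type genes, 19 of glycolysis, 20 of the TCA cycle, 22 of cholesterol synthesis, 20 of the glucocorticoid and FOXO response, 20 of the clock, 18 immediate early genes, 20 of H3K9 methylation and 34 of autophagy. DESeq2 called 0 in these lists as well. At an unadjusted p under 0.05, 19 of these 214 genes, each counted once, were higher and 5 lower. Over all genes tested the shares were 4.76% higher and 4.83% lower. Bdh1, a ketone body dehydrogenase, averaged 48.1 ± 2.21 and 44.3 ± 1.78 CPM (log2 fold change -0.12, SE 0.041, adjusted p = 0.35). Pdk4, the kinase that restrains pyruvate oxidation, was at 6.90, 6.76, 7.40, 7.11 and 7.26 CPM in AL-R and at 6.68, 7.88, 9.55, 10.2 and 11.7 CPM in IF16-R. IF16-R replicates 2 to 5 were above all AL-R libraries and replicate 1 was below them, with an adjusted p of 0.383. Irs2, the insulin receptor substrate, averaged 77.6 ± 9.71 and 95.6 ± 15.5 CPM (0.30, SE 0.098, adjusted p = 0.336). The clock output gene Dbp averaged 66.1 ± 9.51 and 55.1 ± 4.68 CPM (-0.26, SE 0.086, adjusted p = 0.341), and without the replicates 1 of both groups it was called lower (-0.36, adjusted p = 0.0294). The metallothioneins Mt1 and Mt2 were called lower with the replicate block (adjusted p = 0.0426 and 0.008), but had adjusted p-values of 0.441 and 0.489 without it.

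The 5 genes next in order lay just outside the threshold. They were Gpc6 (adjusted p = 0.0553), the follistatin-like gene Fstl5 (0.0553), the sphingosine phosphate receptor gene S1pr1 (0.0698), the scaffold gene Sash1 (0.0723) and C030017K20Rik (0.0729). S1pr1, an astrocyte-rich receptor, averaged 156 ± 6.27 and 177 ± 8.04 CPM.

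The other refed group shares the AL-R libraries, so its values are given side by side only. In EOD-R over AL-R, where 7 genes were called (0.0426%), Gja1, Ednrb and Dnah11 had log2 fold changes of 0.27, 0.26 and 0.32 (adjusted p = 0.0427 for each). The difference between IF16-R and EOD-R does not involve the AL-R levels. The AL-R libraries were still part of the fit that set its filter, scaling and spread. It also rests on the same IF16-R libraries as the comparison with AL-R, so its calls are no separate support for those above. The comparison of IF16-R with EOD-R called 3 genes (0.0182%), all lower in IF16-R. They were Gng13 (log2 fold change -0.61, SE 0.088, adjusted p = 0.0111), Rpl38 (-0.33, SE 0.045, adjusted p = 0.00888) and Rpl41 (-0.25, SE 0.041, adjusted p = 0.0406). These genes are short, at 719, 457 and 695 bases, and the IF16-R length slopes exceeded those of EOD-R on average. With the length slope as a covariate, 0 genes were called between IF16-R and EOD-R. EOD-R libraries held Gng13 at 11.4, 12.8, 14.0, 12.2 and 11.4 CPM, all above the IF16-R values of 6.69 to 9.31 CPM. With the replicate block 40 genes were called in this comparison and with DESeq2 124. It had 18 calls without IF16-R replicate 1, of which 13 were higher in IF16-R, 0 without IF16-R replicate 3 and 0 without EOD-R replicate 2, where edgeR gave 1246 and 1210 genes an unadjusted p under 0.05. Leaving out EOD-R replicate 3 gave 1 call and leaving out EOD-R replicate 1 gave 71. Gja1, Ednrb and Dnah11 had differences between IF16-R and EOD-R of 0.04, 0.01 and 0.07 (SE 0.045, 0.044 and 0.055).

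At the end of the regimen, in other mice, IF16 differed from AL in 8 genes (0.0483%), of which Etnppl was among the 28. There Etnppl was at 95.7, 94.0, 91.1, 84.9 and 96.0 CPM in AL and at 135, 128, 133, 124 and 131 CPM in IF16. Its log2 fold change was 0.50 (SE 0.054, adjusted p = 0.00106) at that time and 0.25 after refeeding, and the change between them, -0.24 (SE 0.070), had an adjusted p of 0.375. Gja1, Ednrb and Dnah11 had log2 fold changes of 0.09, -0.02 and 0.12 at the end of the regimen, and their changes of 0.23, 0.29 and 0.27 did not pass the test (adjusted p = 0.628, 0.246 and 0.797). The change passed the test in 8 genes (0.0474%), of which Fads2 was among the 28. Fads2 was at 72.0, 76.3, 73.2, 75.5 and 70.2 CPM in AL and at 62.3, 72.3, 57.8, 65.3 and 63.5 CPM in IF16, a log2 fold change of -0.19 (SE 0.068) with an unadjusted p of 0.0119 and an adjusted p of 0.398. After refeeding its log2 fold change was 0.27, and the change of 0.46 (SE 0.083) had an adjusted p of 0.0137. The count of 8 was 16 without IF16 replicate 2, 14 without IF16-R replicate 1 and 5 without AL-R replicate 3.

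**Figure D5:**
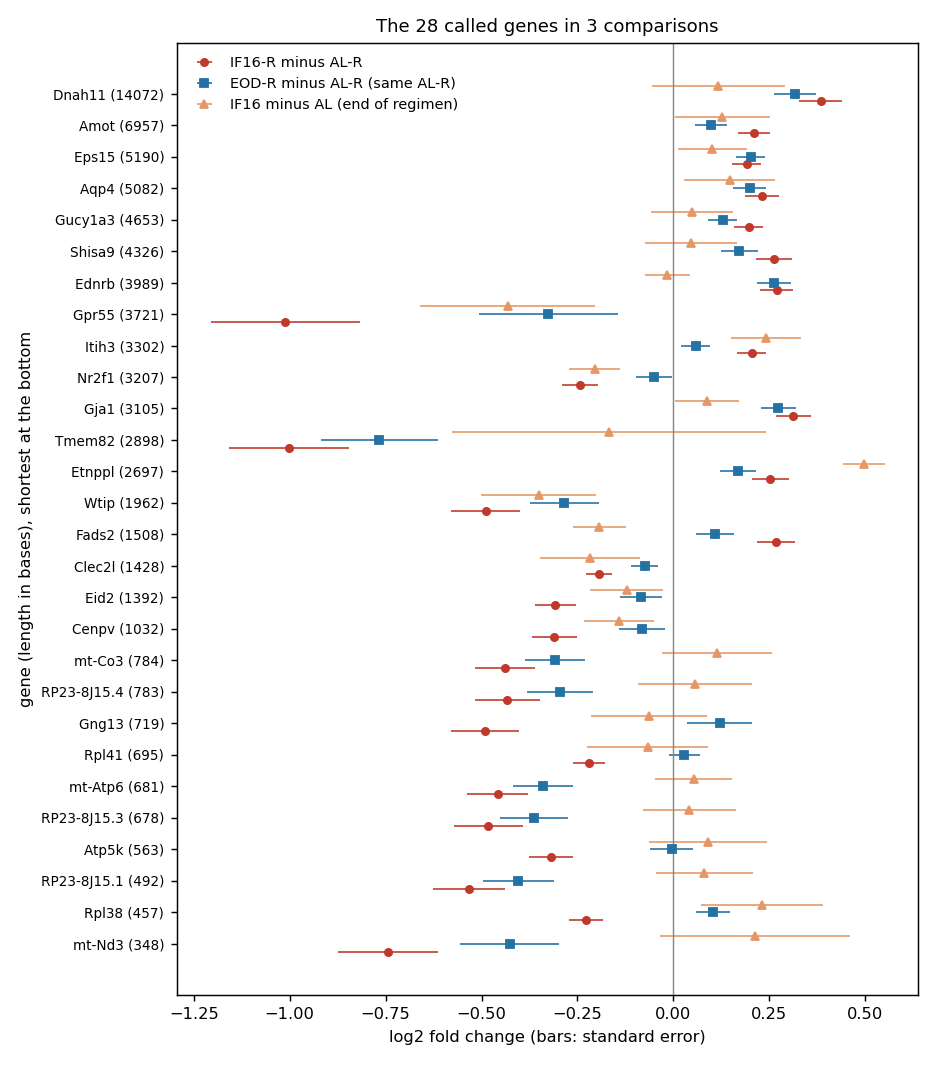
Log2 fold changes of the 28 called genes, ordered by gene length, in IF16-R minus AL-R, in EOD-R minus the same AL-R libraries, and in IF16 minus AL at the end of the regimen. Bars are standard errors. Gng13 is at -0.49 in the first comparison and at 0.12 in the second, and Etnppl is at 0.50 in the regimen comparison.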

How the data were processed

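Cerebellar RNA-seq was analysed from read counts per gene that the authors deposited for 35275 genes, in 1 table for the refed groups (15 libraries) and 1 for the groups at the end of the regimens. STAR 2.5, HTSeq 0.6.1, DESeq2 2 and the mm10 build are named, per the submitters' processing notes. The annotation release, strand setting and RNA selection are not given in the sources used here. The deposited FPKM values equal count over gene length and library total (largest relative difference 5e-12), so they were used only to check units and lengths. Gene lengths and coordinates are as in the deposited tables.

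Counts were tested with edgeR 4.0.16 in R 4.3.3 (TMM, filterByExpr, quasi-likelihood test, group-only model) over the 15 refed libraries, leaving 16444 genes. Calls used a Benjamini-Hochberg adjusted p under 0.05. CPM values are TMM-scaled. Standard errors were derived from the F statistic. The change between the end of the regimen and refeeding came from a joint fit of 30 libraries (16877 genes). Slopes used log2(CPM + 0.5) and are compared with no test. Alternatives were DESeq2 1.42.0, other scalings and filters, length terms (curve span 0.3), a choroid plexus covariate, a replicate block and leaving out each library.

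Deviations of same-numbered libraries of IF16-R and AL-R from their group means correlated at 0.123 to 0.472, the highest for the replicates 1. All were above 0.1, the limit set for trying the number as a block. Libraries of different number correlated at -0.297 to 0.242, so the ranges overlap, and 3 of 5 IF16-R libraries correlated best with their own number. Whether the numbers pair the samples is therefore not settled, and the labels do not say so. The values printed come from the group-only model, and those of the block are given beside results that it changed. On simulated counts with the real means, edgeR recovered 48% of genes changed by 0.3 on the log2 scale, 68% at 0.6, 92% at 1 and 98% at 2, of 50 each, with 6 false calls among 16317 genes. The simulated spread followed the fitted trend, with no length gradient and no outlying library. These rates therefore need not hold for the real libraries.

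Genes named are all those called in IF16-R against AL-R, the next 5 by p and the member with the smallest p of each list. Other list members were named after their values were seen. Marker and pathway lists, and the comparison itself, were chosen with earlier results of these data known. Promoters came from RefSeq (GRCm38.p6). Chromatin samples and group-mean tables were not used here.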

Additional observations from a re-analysis of the deposited data

Results flagged for a closer look

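In 16 of 120 gene and group combinations examined, 1 library stood apart from the other 4 by a gap larger than Dixon's 95% limit (0.71 of the range for 5 libraries). Chance flags about 1 in 20 groups. IF16-R replicate 1 was the highest library of its group for mt-Atp6 (63.7 CPM, others 45.3 to 46.2), mt-Nd3 (7.94, others 4.39 to 5.24), RP23-8J15.1 (81.0, others 55.6 to 61.1), RP23-8J15.3 (99.4, others 68.9 to 73.4), RP23-8J15.4 (69.1, others 50.3 to 53.5), Clic6 (17.8, others 8.50 to 8.99) and Ttr (599, others 7.84 to 157). It was the lowest for S1pr1 (163 CPM, others 178 to 183) and Ndufa3 (83.4, others 88.8 to 90.8). IF16-R replicate 4 was the lowest for Eps15 (209 CPM, others 228 to 234).

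AL-R replicate 1 was the highest library of its group for C030017K20Rik (33.0 CPM, others 23.7 to 26.3), Clic6 (38.1, others 10.2 to 11.5), the noradrenaline transporter gene Slc6a2 (4.002, others 0.69 to 1.43) and Ttr (1816, others 15.02 to 199). It was the lowest for Dbp (49.2 CPM, others 67.9 to 71.5). AL-R replicate 2 was the lowest for Rpl41 (138 CPM, others 150 to 154).

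A test of the difference between the refed regimens was passed by Gng13 (-0.61 on the log2 scale), Rpl41 (-0.25) and Rpl38 (-0.33), each lower in IF16-R than in EOD-R. With the length slope as a covariate, 0 genes passed that test. The difference between IF16 and AL changed after refeeding for Fads2, by 0.46 on the log2 scale. The causes of these differences were not tested.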

How the results depend on the processing

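Of 57 genes whose log2 fold changes were recomputed, 1 changed sign under any alternative run. Clic6, which was called in no fit, went from -0.62 to 0.18 with the length slope as a covariate and to 0.33 with the replicate block and the slope. The 28 calls of IF16-R against AL-R became 108 with DESeq2, 95 with the replicate block, 8 with the length curve removed, 0 with the length slope as a covariate and 1 with the block and the slope, and ranged from 0 to 65 when 1 library was left out. The 3 calls of IF16-R against EOD-R, all lower, became 124 with DESeq2, 6 without a filter, 0 with the slope and 40 with the block, and ranged from 0 to 71 with 1 library left out. The 8 calls for the change of the IF16 difference became 30 with DESeq2 and 35 with the slope, and ranged from 5 to 16 with 1 library left out. The slope difference between IF16-R and AL-R was known when the comparison was chosen, so it is given with no test. It was 0.0288 and ranged from 0.0248 to 0.0332 with 1 library left out. It was 0.0313 in protein-coding genes, 0.0322 in genes of at least 10 CPM, 0.0145 on genomic span and 0.206 as Spearman's rho. That between IF16-R and EOD-R, also given with no test, was 0.0284 and ranged from 0.0245 to 0.0329 with 1 library left out. It was 0.0347 in protein-coding genes, 0.0394 in genes of at least 10 CPM, 0.0097 on genomic span and 0.215 as Spearman's rho. The causes were not tested. The block ended no call of the 28. Length-related differences and group cannot be told apart where the slope is a covariate. Depth limits the genes of few reads, such as Gpr55 with 12 to 16 reads in each IF16-R library.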
